A study of Homo sapiens with 6 samples.

Results

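The 8 genes described here encode transcription factors that build or maintain the hepatocyte and biliary lineages: FOXA1, FOXA2, FOXA3, CEBPA, CEBPB, ONECUT2, PROX1 and SOX9. They were taken by gene name, from a list chosen with earlier results of these data known. They are 8 of the 58735 genes in the deposited table. RNA was sequenced from 6 libraries labelled as Hep3B, a line from a human hepatocellular carcinoma. In 3 of them the cells carried a control short hairpin RNA (shRNA), and in the other 3 an shRNA against HYOU1, which encodes a chaperone of the endoplasmic reticulum. All 6 libraries share the labelled line, tissue (liver) and cell type, and each shRNA is the only agent the labels name. The sources used here do not give the hairpin sequences, their number, the vector or the time after delivery, nor do they say that replicates were separate cultures. All p-values therefore refer only to how these libraries varied, which may be technical variation. Values per library are listed in the order of replicates 1, 2 and 3, controls first.

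In the developing liver the FOXA proteins act as pioneer factors: their forkhead domain, which resembles a linker histone, binds closed chromatin at liver enhancers and lets other factors in. The C/EBP proteins bind as dimers through a basic leucine zipper. C/EBPalpha is known for holding hepatocytes in a differentiated, resting state, and C/EBPbeta for acting in the acute-phase response and in regeneration. SOX9 marks the biliary and ductal lineage, ONECUT2 acts with its paralog ONECUT1 early in liver and bile duct formation, and PROX1 is a homeobox-type factor of hepatoblast migration and hepatocyte identity.

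Of the 8 genes, 5 were expressed, taken here as a mean of at least 1 FPKM (fragments per kilobase of gene length, scaled to the depth of the library) over the 6 libraries. These were CEBPB, CEBPA, SOX9, ONECUT2 and FOXA1. FOXA3 was weakly present, and PROX1 and FOXA2 stood at or near the counting floor. None of the 5 expressed genes differed between the groups at an adjusted p under 0.05 when all 6 libraries were used, in a fit that called 12.3% of all tested genes. CEBPB was lower with HYOU1 shRNA in the fit without control replicate 1, a library that stood apart from the rest, and after a correction for GC content. Those fits called 44.3% and 40.6% of all tested genes in either direction. In them 19.7% and 20.2% of tested genes were lower, so 1 of 5 lower is near the share in that direction. The level of CEBPA relative to CEBPB was higher in all 3 HYOU1 shRNA libraries than in any control library. CEBPA alone also separated the groups, as did 23.8% of all tested genes in that direction.

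RefSeq start sites were at hand for 5 of the 8 genes (GRCh38.p14). The following stretches run from 40 to 11 bases before each start and are given because CEBPA, CEBPB and FOXA3 share a feature there. Capitals mark TATAAA, the core of a TATA box.
CEBPA (chr19:33302545-33302574, minus strand): gcctgccgggTATAAAagctgggccggcgc
CEBPB, downstream start (chr20:50190790-50190819, plus strand): cgggccgccctTATAAAtaaccgggctcag
FOXA3 (chr19:45864286-45864315, plus strand): gtgtcccggcTATAAAgcgtggccgcctcc
CEBPB, upstream start (chr20:50190543-50190572, plus strand): aggggcggtccgggggcggggtcgcaccgc
FOXA1 (chr14:37595260-37595289, minus strand): cgacgtaagatccacatcagctcaactgca
ONECUT2 (chr18:57435334-57435363, plus strand): ccaggtccgggagggtaggttggctgcccc

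TATAAA began 30 bases before the start in CEBPA and FOXA3 and 29 bases before the downstream start of CEBPB. Among 35116 promoters of 300 bases (250 before to 50 after a start), 11.5% held TATAAA on either strand, and 2.17% held it on the sense strand with its first base 35 to 25 bases before the start. The promoters of the 5 genes were rich in G and C. GC content was 80.7% in CEBPA, 77.0% and 76.7% at the upstream and downstream starts of CEBPB, 76.3% in FOXA3, 69.3% in FOXA1 and 68.0% in ONECUT2, against a median of 58.7% over all promoters. The C/EBP core TTGCNNAA was in none of these 6 windows on either strand, and in 10.5% of all promoters. The endoplasmic reticulum stress element, CCAAT and CCACG spaced by 9 bases, was in none of them on either strand, and in 0.0769% of all promoters. CCAAT alone was found at both CEBPB starts, where it is the same site in overlapping windows, and in 34.6% of all promoters. GGGCGG, a GC box, was in all 6 windows and in 45.0% of promoters. The FOXA-type motif TGTTTGC was found at FOXA1 and in 3.89% of promoters, and TGTTTAC was in none of the 6 windows and in 3.42% of promoters. TGACG, the core of CREB and ATF sites, was found at the downstream start of CEBPB, at ONECUT2 and in 24.6% of promoters. All motifs were sought on both strands. A match of letters is a description and not a measured binding site.

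The libraries held 16893091 to 18233240 fragments, as recovered from the deposited values. HYOU1, the targeted gene, was at 37.6, 58.2 and 59.5 FPKM with control shRNA and at 2.35, 2.32 and 2.37 FPKM with HYOU1 shRNA, so its level matched the labels. Products of hepatocytes were scarce. A list of 30 hepatocyte proteins held 4 expressed genes (CPS1, and ABCC2, RBP4 and PCK1, named after their values were seen) and 7 without a fragment in any library. Albumin (ALB) was among the latter, with a floor of 3 fragments at up to 0.0520 FPKM, and AFP had 3 fragments over the 6 libraries. Hep3B is known as a line that secretes both proteins, so these values go against the label, and the cells are called here by the label only. Biliary markers were better represented, with 12 of 16 expressed, among them KRT7 at 30.6 to 56.8 FPKM, while SPP1 had a value above 0 in control replicate 1 alone (both chosen after their values were seen). None of 13 markers of gut, pancreas and lung and none of 10 immune markers were expressed. Of 8 endothelial markers EGFL7 alone was, and 5 of 11 fibroblast and stellate cell markers were. In bulk RNA, fewer cells of a type and less RNA per cell cannot be told apart.

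Control replicate 1 differed from the other libraries by GC content. Among the 10% of tested genes with the lowest GC content its median log2 difference from the mean of control replicates 2 and 3 was 0.76, and among the 10% with the highest it was -1.0. It was also higher in the keratins KRT5 and KRT14, markers of squamous epithelium, at 29.1 and 36.3 FPKM against 3.21 to 6.23 and 4.24 to 8.40 in the other 5 libraries. The biliary keratin KRT19, also chosen after its values were seen, was at 11.6 FPKM there and at 1.13 to 3.38 elsewhere. Mitochondrial genes held 7.59% of fragments in control replicate 1, 5.17% and 4.96% in the other controls and 3.39% to 3.84% with HYOU1 shRNA. Immune markers summed to 0.644 to 2.18 FPKM in controls and 1.17 to 1.23 FPKM with HYOU1 shRNA. The part these had in the results was not tested, and the expressed lineage factors are given with and without this library.

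**Figure D1:**
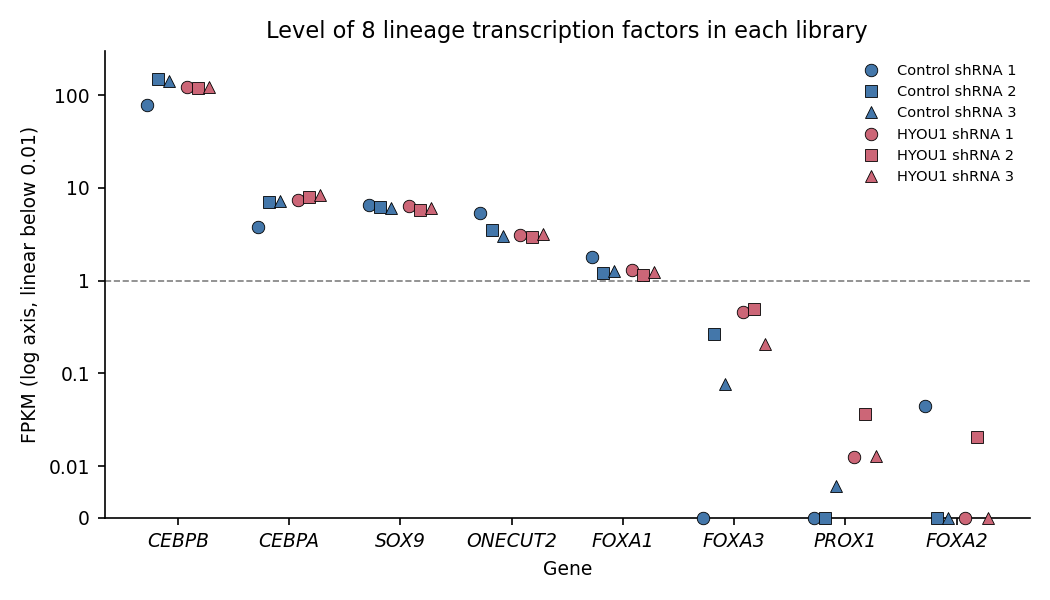
FPKM (vertical axis, logarithmic above 0.01 and linear below) of the 8 genes in each library, with control shRNA in blue and HYOU1 shRNA in red and 1 symbol per replicate number. The dashed line is 1 FPKM: 5 genes lie above it in every library, CEBPB between 78.4 and 148 FPKM, and FOXA3, PROX1 and FOXA2 lie below it.

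FOXA1 (ENSG00000129514, chr14:37589984-37596059, minus strand, GRCh38 as in all gene positions here) was the one FOXA gene above 1 FPKM. Its values were 1.79, 1.22 and 1.26 FPKM with control shRNA and 1.29, 1.15 and 1.25 FPKM with HYOU1 shRNA. Control replicate 1 was the highest library and the other 5 lay within a narrow band, so the groups overlapped. These values rested on 84 to 122 fragments per library. The group means were 1.42 ± 0.321 and 1.23 ± 0.0731 FPKM (SD, n = 3 each), with a log2 fold change (HYOU1 shRNA minus control, on the log2(FPKM + 0.1) scale) of -0.18 and an SE (standard error) of 0.22 (limma, adjusted p = 0.605). The 95% interval of the difference ran from 0.613-fold to 1.27-fold. Without control replicate 1 the difference was -0.012 (limma, adjusted p = 0.964), with an interval from 0.735-fold to 1.34-fold. Among the 47 forkhead genes of the deposited annotation FOXA1 ranked 23 by mean level.

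FOXA3 (ENSG00000170608, chr19:45863989-45873797, plus strand), known as an abundant FOXA protein of adult hepatocytes, was seen at 0, 0.268 and 0.0763 FPKM with control shRNA. In HYOU1 shRNA replicates 1, 2 and 3 it was at 0.459, 0.497 and 0.209 FPKM. HYOU1 shRNA replicates 1 and 2 were above all controls, but replicate 3 lay below control replicate 2. In fragments these were 0, 11 and 3 against 18, 20 and 8, where 3 fragments were worth 0.0730 to 0.0802 FPKM. FOXA3 entered a fit only when the minimum was lowered to 0.1 FPKM, and there its difference was 1.33 with an SE of 0.59 (limma, adjusted p = 0.220). FOXA2 (ENSG00000125798, chr20:22581005-22585455, minus strand), needed for liver specification together with FOXA1, had 2, 0 and 0 fragments in the controls and 0, 1 and 0 with HYOU1 shRNA. Neither group exceeded the floor of 3 fragments (0.0615 to 0.0675 FPKM), so a difference in FOXA2 was not detectable at this depth. Differences of FOXA1 and FOXA3 from FOXA2 within a library rest on that floor and were not tested.

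CEBPB (ENSG00000172216, chr20:50190734-50192689, plus strand) was the highest of the 8 genes and ranked 6 among the 1553 transcription factors that the deposited table annotates. Its values were 78.4, 148 and 141 FPKM with control shRNA and 122, 118 and 121 FPKM with HYOU1 shRNA. Control replicate 1 was the lowest library and control replicates 2 and 3 the highest, with all HYOU1 shRNA libraries in between. Group means were 123 ± 38.5 and 121 ± 2.08 FPKM (SD, n = 3 each), and the groups differed by 0.030 on the log2 scale, with an SE of 0.25 (limma, adjusted p = 0.943). The 95% interval ran from 0.678-fold to 1.54-fold. Without control replicate 1, CEBPB fell by 0.26 on the log2 scale, to 0.833-fold (limma, adjusted p = 0.00629). After removal of the GC trend from each library it fell by 0.48, to 0.718-fold (limma, adjusted p = 0.00626). These fits called many more genes than the 12.3% called with all libraries: 44.3% of tested genes without control replicate 1, 19.7% in the lower direction, and 40.6% after the GC correction, 20.2% in the lower direction.

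CEBPA (ENSG00000245848, chr19:33299934-33302564, minus strand) was at 3.76, 6.96 and 7.20 FPKM with control shRNA and at 7.35, 7.99 and 8.39 FPKM with HYOU1 shRNA. The groups did not overlap, although the gap between control replicate 3 and HYOU1 shRNA replicate 1 was small. Of all tested genes, 23.8% were higher in every HYOU1 shRNA library than in any control, so this alone does not set CEBPA apart. Group means were 5.97 ± 1.92 and 7.91 ± 0.525 FPKM (SD, n = 3 each), a log2 difference of 0.45 with an SE of 0.26 (limma, adjusted p = 0.275). The interval ran from 0.890-fold to 2.11-fold. Without control replicate 1 the difference was 0.16 (limma, adjusted p = 0.175), and after the GC correction it was -0.049 (limma, adjusted p = 0.665), so its direction turned.

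**Figure D2:**
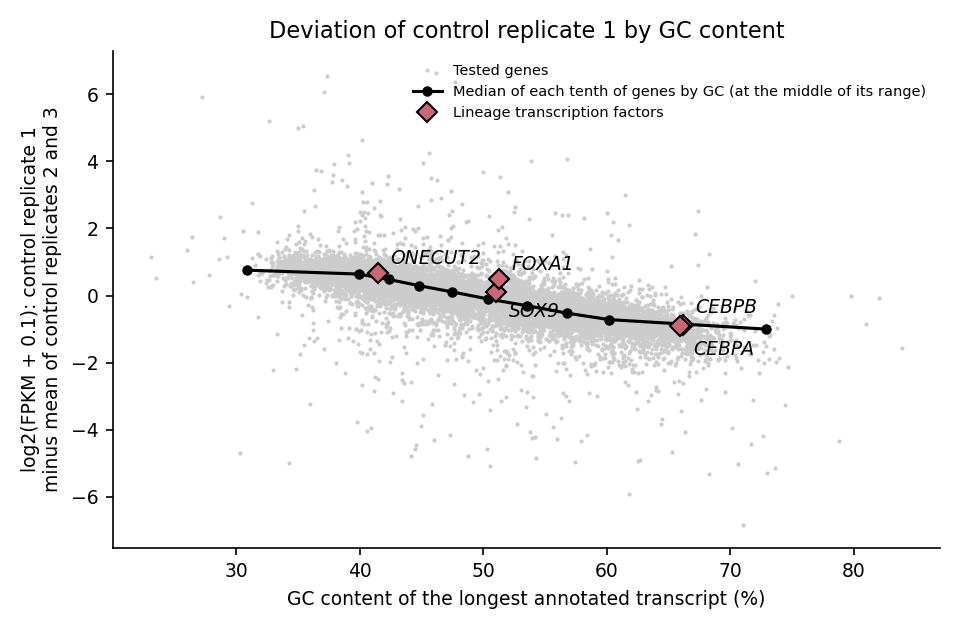
Control replicate 1 minus the mean of control replicates 2 and 3 on the log2(FPKM + 0.1) scale (vertical axis) against the GC content of each tested gene's longest annotated transcript in percent (horizontal axis). The black line joins medians of genes binned by GC content, each bin holding 10% of them, and diamonds are the 5 expressed lineage factors: CEBPA and CEBPB lie together at -0.89 and -0.88, and ONECUT2 lies at 0.69.

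The transcripts of CEBPA and CEBPB had nearly the same GC content, 65.9% and 66.2%, and both were lower in control replicate 1, with log2 differences of -0.89 and -0.88 from the average of the other controls. The level of CEBPA relative to CEBPB was therefore compared within each library. FPKM is a value per length, so levels of both genes can be set side by side. Per 100 of CEBPB there were 4.80, 4.69 and 5.10 of CEBPA with control shRNA, and 6.0, 6.75 and 6.94 with HYOU1 shRNA. Control replicate 1 lay between the other controls, and all HYOU1 shRNA libraries lay above all controls. Since 23.8% of single genes separated the groups in this direction and no share over gene pairs was computed, the separation alone does not set this pair apart. On the log2 scale CEBPA minus CEBPB was -4.34 ± 0.0593 in controls and -3.91 ± 0.11 with HYOU1 shRNA (SD, n = 3 each). The shift of 0.42 was larger than the spread within either group, with p = 0.10 in a two-sided exact permutation test, the smallest p that 3 against 3 libraries allow. It was the only pair of paralogs with both genes expressed. The shift was 0.42 without control replicate 1, and leaving out any 1 library gave between 0.38 and 0.49. After the GC correction it was 0.43. That correction takes nearly the same amount from both transcripts, whose GC content is alike, so it could hardly move the shift.

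**Figure D3:**
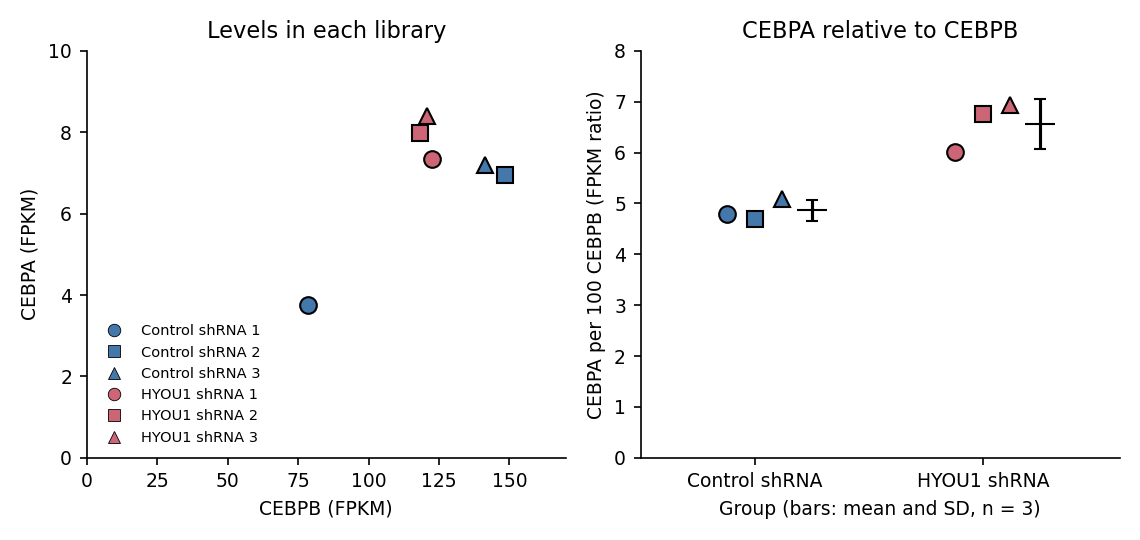
Left, FPKM of CEBPA (vertical axis) against FPKM of CEBPB (horizontal axis) in each library. Right, CEBPA per 100 of CEBPB in each library by group, with the mean and SD (n = 3): 4.86 ± 0.209 in controls and 6.56 ± 0.496 with HYOU1 shRNA, with control replicate 1 low for both genes on the left but among the other controls on the right.

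SOX9 (ENSG00000125398, chr17:72121020-72126420, plus strand) had the smallest standard error of the 5 expressed genes. Its values were 6.60, 6.14 and 6.03 FPKM with control shRNA and 6.43, 5.82 and 6.04 FPKM with HYOU1 shRNA, from 416 to 453 fragments per library. The ranges of the groups overlapped in part, with HYOU1 shRNA replicate 2 the lowest library and control replicate 1 the highest. Group means were 6.26 ± 0.298 and 6.10 ± 0.307 FPKM (SD, n = 3 each), and the groups differed by -0.036 on the log2 scale, with an SE of 0.12 (limma, adjusted p = 0.852). The 95% interval ran from 0.802-fold to 1.18-fold, and from 0.874-fold to 1.15-fold without control replicate 1, where the difference was 0.0014 (limma, adjusted p = 0.992). Among 49 HMG-box genes in the deposited annotation, SOX9 ranked 17 by mean level.

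ONECUT2 (ENSG00000119547, chr18:57435685-57491297, plus strand) was at 5.32, 3.49 and 3.05 FPKM with control shRNA and at 3.11, 2.98 and 3.18 FPKM with HYOU1 shRNA. Control replicate 1 was the highest library, and the remaining libraries lay close together in both groups. The transcript has a GC content of 41.5%, low among these genes. Group means were 3.96 ± 1.20 and 3.09 ± 0.103 FPKM (SD, n = 3 each), and the groups differed by -0.31 on the log2 scale, with an SE of 0.22 (limma, adjusted p = 0.377). The interval ran from 0.561-fold to 1.17-fold. Without control replicate 1 the difference was -0.077 (limma, adjusted p = 0.606), with an interval from 0.794-fold to 1.13-fold. ONECUT1 had no fragment in any library, so ONECUT2 was seen here without its paralog.

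PROX1 (ENSG00000117707, chr1:213983181-214041502, plus strand) had 0, 0 and 1 fragments with control shRNA and 2, 6 and 2 with HYOU1 shRNA. Only HYOU1 shRNA replicate 2, at 0.0366 FPKM, exceeded the floor of 3 fragments (0.0179 to 0.0197 FPKM). PROX1 entered a fit only when no minimum was set (limma, adjusted p = 0.450).

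In order of mean level the genes ran from CEBPB through CEBPA, SOX9, ONECUT2, FOXA1 and FOXA3 to PROX1 and FOXA2. CEBPB was 17.5-fold above CEBPA, and its lowest library exceeded the highest of CEBPA. CEBPA and SOX9 overlapped, with CEBPA higher in 5 of 6 libraries. SOX9, ONECUT2, FOXA1 and FOXA3 followed each other without overlap over the 6 libraries, and PROX1 overlapped with both FOXA3 and FOXA2.

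Of the 5 lineage factors tested, 0 were called with all libraries (limma, adjusted p under 0.05), 0 had an unadjusted p under 0.05, and 0 were called by voom on the recovered fragments. Over all 12448 tested genes the corresponding shares were 12.3%, 31.5% and 14.2%, and of the 819 transcription factors among them limma called 12.2%. The median log2 fold change was -0.036 over the 5 genes and 0.035 over all tested genes. CEBPB was the 1 of 5 called without control replicate 1, in a fit that called 44.3% of all tested genes, and likewise after the GC correction, where 40.6% were called.

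**Figure D4:**
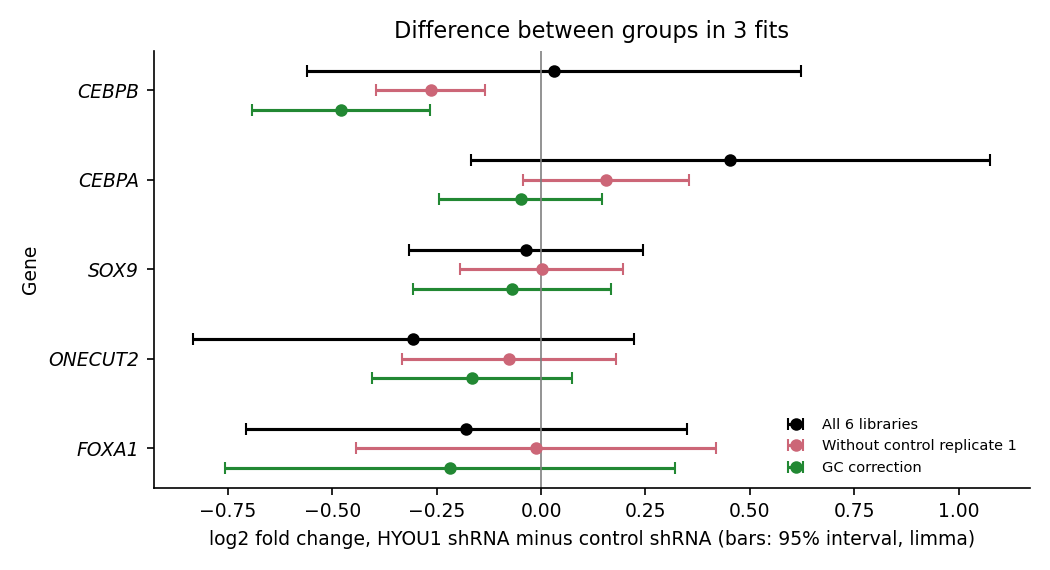
Log2 fold change of the 5 expressed lineage factors (horizontal axis, HYOU1 shRNA minus control shRNA) with 95% intervals from limma in 3 fits: all libraries (black), without control replicate 1 (red) and after the GC correction (green). Only the red and green intervals of CEBPB, at -0.26 and -0.48, exclude 0, and the black interval of CEBPA is centred at 0.45 while the green one lies at -0.049.

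Genes that lie close to the 8 factors were read as well, since the sources used here do not say whether counting used the strand. The table listed 15 genes within 5 kb of a factor, of which 6 shared exonic bases with it and 7 had no fragment in any library. CEBPB-AS1, which shares 231 exonic bases with CEBPB on the other strand, had 15, 30 and 16 fragments with control shRNA and 7, 5 and 2 with HYOU1 shRNA. Its groups did not overlap, and in the fit with a minimum of 0.1 FPKM its difference was -1.40 with an SE of 0.41 (limma, adjusted p = 0.0939). Of all tested genes 23.8% were higher in every HYOU1 shRNA library, and the share lower in every one is not given here. The separation alone therefore does not set CEBPB-AS1 apart. CEBPB itself had 2618 to 5433 fragments per library. CEBPA-DT, transcribed away from CEBPA starting at a distance of 293 bases, had 7, 36 and 33 fragments in the controls and 11, 21 and 14 with HYOU1 shRNA. It was low in control replicate 1, the groups overlapped, and its difference was -0.42 in the same fit (limma, adjusted p = 0.653). LINC00261, the long non-coding RNA beside FOXA2, was at 0 in every library, as FOXA2 nearly was.

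The other factors of the hepatocyte programme were sparsely expressed, and some of them changed. Of 22 listed genes, 10 were tested: 3 rose, 2 fell and 5 did not pass (limma, adjusted p under 0.05, median log2 fold change -0.044 against 0.035 over all tested genes). CREB3L3, a membrane-bound factor of the hepatic endoplasmic reticulum, rose from 0.759 ± 0.212 to 2.89 ± 0.306 FPKM (SD, n = 3 each), by 1.83 on the log2 scale (limma, adjusted p = 0.0104). Its control mean was under the minimum of 1 FPKM, so it was tested only through its level with HYOU1 shRNA. With a minimum of 0.1 FPKM it was also called. HHEX, a homeobox factor of the liver bud, was at 6.78, 5.73 and 5.49 FPKM with control shRNA and at 9.29, 9.12 and 10.5 FPKM with HYOU1 shRNA, a rise of 0.68 (limma, adjusted p = 0.0276). PPARA, a nuclear receptor of fatty acid oxidation, fell by 1.22 (limma, adjusted p = 0.0105), and ZHX2, a repressor of AFP after birth, fell by 0.84 (limma, adjusted p = 0.0357). The remaining called gene, GATA6, an endodermal GATA factor named after its value was seen, rose by 0.59 (limma, adjusted p = 0.0412) and did not pass after the GC correction (limma, adjusted p = 0.0711). HNF4A, the nuclear receptor at the centre of the hepatocyte network, stood at 1.11 to 1.96 FPKM in controls and 1.12 to 1.48 FPKM with HYOU1 shRNA. HNF4A is named for its role: it differed by -0.26 (limma, adjusted p = 0.537) and by -0.52 without control replicate 1 (limma, adjusted p = 0.0440). After the GC correction HNF4A differed by -0.34 and did not pass (limma, adjusted p = 0.207). Of the same 10 genes, 3 rose and 4 fell when control replicate 1 was left out, and the GC correction gave 2 higher and 3 lower. Over all tested genes these fits called 44.3% and 40.6%, against 12.3% with all libraries.

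Most listed biliary factors were expressed. Of 12 genes 9 were tested, of which 1 rose, 1 fell and 7 did not pass (limma, adjusted p under 0.05, median log2 fold change -0.16). KLF6, a zinc finger factor of injured epithelium, rose from 2.91 ± 0.266 to 9.81 ± 0.831 FPKM (SD, n = 3 each), by 1.72 on the log2 scale (limma, adjusted p = 0.00302). SOX4, which acts with SOX9 in bile duct formation, was at 11.2, 10.1 and 10.6 FPKM with control shRNA and at 6.62, 6.28 and 6.80 FPKM with HYOU1 shRNA. Its groups lay far apart relative to their spread, and it fell by 0.69 (limma, adjusted p = 0.0162), while SOX9 differed by -0.036. Both leaving out control replicate 1 and correcting for GC content gave 2 higher and 2 lower genes. Those fits called 44.3% and 40.6% of all tested genes, against 12.3% with all libraries.

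**Figure D5:**
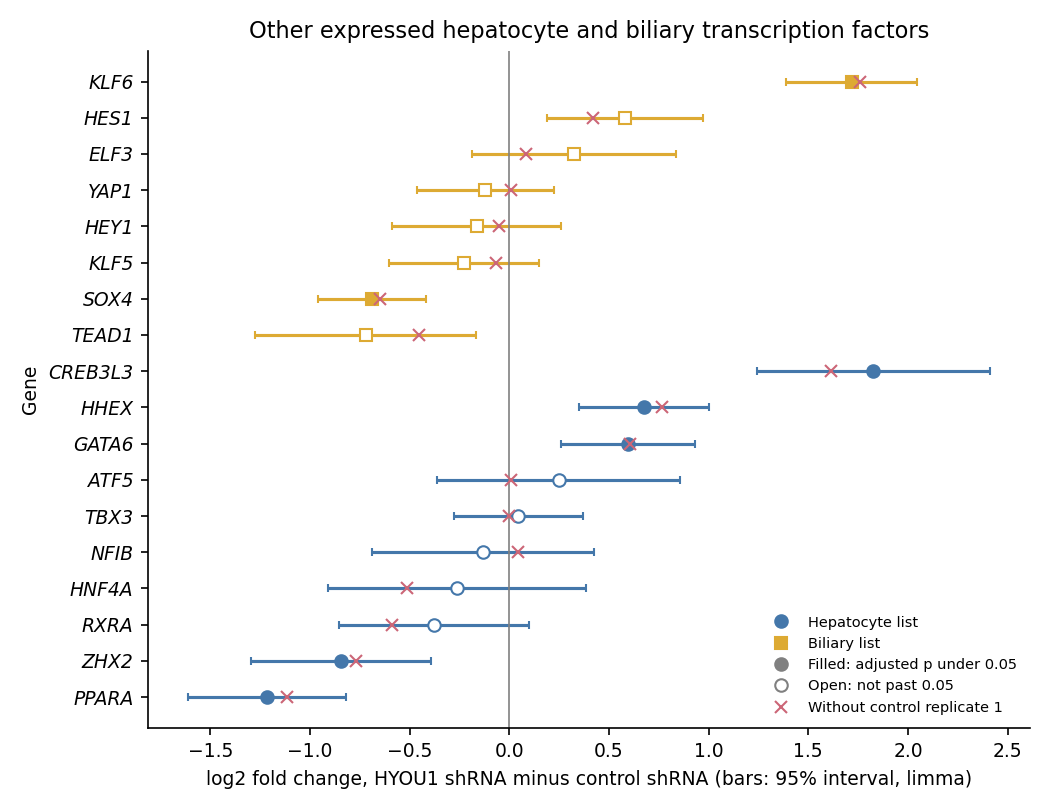
Log2 fold change (horizontal axis, HYOU1 shRNA minus control shRNA) with 95% intervals from limma for 18 of the 19 other hepatocyte (circles) and biliary (squares) factors tested. Filled symbols passed an adjusted p under 0.05, and crosses give the value without control replicate 1: KLF6 at 1.72 and CREB3L3 at 1.83 lie farthest to the right and PPARA, at -1.22, farthest to the left.

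Relatives of the lineage factors were read from family lists. Of 5 further genes listed with the C/EBP factors 4 were tested, and 0 were called (limma, adjusted p under 0.05), with 0 at an unadjusted p under 0.05 and 0 by voom. CEBPZ, which despite its symbol has no basic leucine zipper and is not a true C/EBP protein, and CEBPD were the 2 with the highest means and differed by 0.37 and -0.039. When control replicate 1 was left out, CEBPZ differed by 0.63 (limma, adjusted p = 0.000341) and CEBPD, an acute-phase factor like CEBPB, by -0.48 (limma, adjusted p = 0.000803). CEBPD was at 8.26 FPKM in control replicate 1, at 20.6 and 21.1 FPKM in the other controls and at 14.4 to 15.7 FPKM with HYOU1 shRNA, so that, as for CEBPB, the HYOU1 shRNA libraries lay between control replicate 1 and the other controls. Of 6 other SOX genes tested 2 rose and 1 fell: SOX17, an endodermal factor, rose by 1.38 (limma, adjusted p = 0.0202), SOX13 by 1.00 (limma, adjusted p = 0.0144), and the gene that fell was SOX4. Of 19 other forkhead genes tested 2 were called, both lower: FOXQ1 fell by 1.04 (limma, adjusted p = 0.0315) and FOXC1 by 0.84 (limma, adjusted p = 0.00872). FOXC1 was at 33.6, 33.7 and 31.6 FPKM with control shRNA, far above FOXA1 on the same scale per length, and at 19.1, 18.2 and 17.9 FPKM with HYOU1 shRNA. The forkhead counts became 6 higher and 7 lower when control replicate 1 was left out. That fit called 44.3% of all tested genes, against 12.3% with all libraries.

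The Notch pathway induces SOX9 in cells that take the biliary fate. Of 28 listed genes 24 were tested, of which 2 rose, 3 fell and 19 did not pass (limma, adjusted p under 0.05, median log2 fold change -0.14). The receptor NOTCH1 rose from 11.6 ± 2.02 to 21.4 ± 1.51 FPKM (SD, n = 3 each), by 0.88 on the log2 scale (limma, adjusted p = 0.0223), and the ligand JAG1 rose by 1.01 (limma, adjusted p = 0.0180). MFNG, a glycosyltransferase that modifies Notch receptors, fell by 1.79 (limma, adjusted p = 0.0171) and MAML3, a coactivator, fell by 1.49 (limma, adjusted p = 0.0304). Both are low genes, and over the alternative fits their differences came as near to 0 as -1.04 and -0.77. MFNG and MAML3 may therefore have been tested only through their level with control shRNA. With a minimum of 0.1 FPKM both were also called. HES1, a target of Notch named for its role, was at 15.0 ± 2.73 and 22.2 ± 1.05 FPKM (SD, n = 3 each). HES1 differed by 0.58 (limma, adjusted p = 0.0657), and by 0.42 when control replicate 1 was left out (limma, adjusted p = 0.00150). Both leaving out control replicate 1 and correcting for GC content gave 5 higher and 7 lower genes in this list. In those fits 44.3% and 40.6% of all tested genes were called, against 12.3% with all libraries.

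The calls in these lists depended on single libraries, and so did those over all tested genes. Of 12448 tested genes 1526 were called with all libraries, and 49 to 5518 when a library was left out. The 6 lists held 16 different called genes. All 16 were also called in the same direction without control replicate 1, but 5 were without control replicate 2 and 9 without control replicate 3. Without HYOU1 shRNA replicate 1, 2 or 3, KLF6 alone passed in each fit, with an adjusted p of at most 0.0406 over the fits that left out a library. For the 13 other called genes given as the largest changes of their lists, the highest adjusted p over these fits ran from 0.0753 in FOXC1 to 0.148 in ZHX2 (limma).

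Genes that hepatocyte and biliary factors are known to serve were followed in the marker lists. Of the 4 hepatocyte proteins tested 1 fell: CPS1, the entry enzyme of the urea cycle, was at 223, 173 and 175 FPKM with control shRNA and at 49.2, 48.5 and 47.0 FPKM with HYOU1 shRNA. It fell by 1.97 on the log2 scale (limma, adjusted p = 0.00224) and passed in each of the 6 fits that left out a library. When control replicate 1 was left out 3 of the 4 were called lower, as many as with the GC correction, and voom called 2 of them lower. Over all tested genes these fits called 44.3%, 40.6% and 14.2%, of which 19.7% and 20.2% of tested genes were lower in the first and second. Summed over the hepatocyte list, levels were 201.2 to 251 FPKM in controls and 65.8 to 68.2 FPKM with HYOU1 shRNA, most of it CPS1. Of 12 biliary markers tested 1 rose and 1 fell (limma, adjusted p under 0.05). The fit with all libraries, used for these counts in both marker lists, called 12.3% of all tested genes. ITGB4, an integrin of hemidesmosomes, rose by 1.46 (limma, adjusted p = 0.0145), and its highest adjusted p without 1 library was 0.0870 (limma). Summed over the biliary list, levels were 184 to 236 FPKM in controls and 258 to 285 FPKM with HYOU1 shRNA. When control replicate 1 was left out, 7 of the 12 rose and 3 fell, in a fit that called 44.3% of all tested genes.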

How the data were processed

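The authors deposited 1 table of FPKM values with gene lengths and coordinates, per the file headers. The aligner and counter, with versions, were not given in the sources used here. Each of the 58735 identifiers matched GENCODE 29 (GRCh38) in its coordinates. FPKM times length came in whole steps (tolerance 0.01 fragments), which gave back fragments. Floors of 3 fragments cover counting error only, while the 95% intervals come from limma and reflect the spread between libraries. The 12448 genes averaging 1 FPKM or more were compared in limma 3.58.1 (R 4.3.3) on log2(FPKM + 0.1), with a variance trend, robust priors and Benjamini-Hochberg adjustment over all of them. Fold changes on this scale understate the change of low genes. The GC correction removed a lowess trend (span 0.3) fitted in each library against the GC share of a gene's longest transcript, and also removes real differences that follow GC content. RGS5 was read from its protein-coding entry. Members and lists were chosen with earlier results of these data known. Named genes are all 8 factors, HYOU1, and per list up to 4 called genes with the largest change, or the 2 with the highest mean; others were named for their role or after their values were seen. No factor was called, so none was matched to genes of like pattern. Alternatives were pseudocounts, filters, scalings, a replicate block, the GC correction, voom and leaving out each library. The values of some listed genes, 1 of them left out of a figure, are not reported here.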

Additional observations from a re-analysis of the deposited data

How the results depend on the processing

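The count of called genes, 1526 with all libraries, was 938 with a filter of 5 FPKM, 770 without a filter, 5048 after the GC correction and 49 to 5518 when a library was left out. The count of lineage factors called, 0, was 1 after the GC correction, 1 with the GC correction and the replicate block together, and 0 to 1 when a library was left out. Over the 6 gene lists, 16 calls became 8 with a filter of 5 FPKM, 10 without a filter, 35 after the GC correction, 34 with the GC correction and the replicate block, and 1 to 39 when a library was left out. The cause of these changes was not tested. The highest of the leave-one-out counts, 5518 and 39, were those without control replicate 1. Same-numbered libraries correlated at 0.12, -0.093 and 0.17 in their deviations from the group means. Control replicates 1 and 3 correlated best with the HYOU1 shRNA library of the same number, and control replicate 2 with HYOU1 shRNA replicate 3 (0.16). With 3 libraries per group these values cannot decide whether the numbers pair the samples. With the replicate block 940 genes were called, 4504 with the GC correction added, and the block called 0 lineage factors without that correction. The direction turned in CEBPA after the GC correction (-0.049, also with the replicate block), in CEBPB with quantile normalization (-0.095), after the GC correction (-0.48, also with the replicate block) and without control replicate 1 (-0.26), in SOX9 with TPM scaling (0.0013) and without control replicate 1 (0.0014, leave-one-out range -0.075 to 0.0014), and in CEBPD with TPM scaling (0.00025) and without control replicate 2 (0.17) or 3 (0.19). The shift of CEBPA against CEBPB kept its direction in all 9 alternatives, from 0.36 to 0.49, where leaving out a library makes the smallest exact p 0.20. Leaving out a library could not turn it, since all HYOU1 shRNA libraries lay above all controls. The GC correction could hardly move it, since both transcripts have like GC content. At this depth a difference in FOXA2 was not detectable, and PROX1 rested on 11 fragments in all.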

Other observations

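Markers of fibroblasts and stellate cells were the other listed group in which genes passed the test. Of 11 listed genes 5 were tested, and limma called 2 higher and 1 lower (adjusted p under 0.05). That fit called 12.3% of all tested genes. DES, which encodes the intermediate filament desmin, was at 1.28 ± 0.269 FPKM with control shRNA and 5.36 ± 0.286 FPKM with HYOU1 shRNA (SD, n = 3 each), a rise of 2.00 on the log2 scale (limma, adjusted p = 0.00458). COL1A1, a chain of type I collagen, rose by 1.09 (limma, adjusted p = 0.0159), and DCN, the proteoglycan decorin, fell by 1.35 (limma, adjusted p = 0.00708). Summed over the list, levels were 12.02 to 13.9 FPKM in controls and 15.9 to 16.8 FPKM with HYOU1 shRNA. In fits that left out a library the adjusted p reached 0.0522 in DES, 0.0980 in COL1A1 and 0.0571 in DCN (limma). EGFL7, the expressed gene of the endothelial list, was at 17.9 FPKM in control replicate 1 and 42.9 to 60.2 FPKM in the other libraries, and differed by 0.69 (limma, adjusted p = 0.264). HOXA10 was the expressed gene of a list for mesodermal, müllerian and kidney epithelium, whose sum was 7.19 to 7.66 FPKM in controls and 6.95 to 7.59 FPKM with HYOU1 shRNA.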
